A study of Bos taurus with 27 samples.

Results

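Collagen transcripts were followed in the colon of newborn calves. Of the 10 genes listed, 5 encode chains of fibrillar collagens and 5 encode chains of collagens IV and VI, which form networks and microfibrils. They were chosen by name, and 9 of them matched exactly 1 of the 24616 gene identifiers of the count table. COL5A1 matched none in the name tables used and was not analysed here. The 9 members were COL3A1 (ENSBTAG00000021466), COL1A1 (ENSBTAG00000013103), COL1A2 (ENSBTAG00000013472), COL5A2 (ENSBTAG00000027020), COL4A1 (ENSBTAG00000012849), COL4A2 (ENSBTAG00000025210), COL6A1 (ENSBTAG00000011802), COL6A2 (ENSBTAG00000019269) and COL6A3 (ENSBTAG00000030190).

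Whole colon tissue was taken at 51 h of age from 27 male Holstein calves, and 1 RNA library was sequenced per calf. The calves differed in when they first drank colostrum: immediately after birth (TRT0, 9 calves), at 6 h (TRT6, 9 calves) or at 12 h (TRT12, 9 calves). Every calf received the same pooled, pasteurized colostrum by tube and milk replacer afterwards, so no group went without colostrum, and the calves of the later groups were sampled sooner after that meal. Within each treatment 4 calves had a primiparous dam (heifer, H) and 5 a multiparous dam (cow, C), which gives 6 groups (TRT0_H, TRT0_C, TRT6_H, TRT6_C, TRT12_H and TRT12_C). A calf is named here by its group and its number within the treatment.

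Collagens are the main structural proteins of connective tissue, and each is wound from 3 chains. Type I collagen is built from the chains of COL1A1 and COL1A2, type III from COL3A1 alone, and type V, which COL5A2 contributes to, sits inside type I fibrils and limits their width. COL4A1 and COL4A2 form the sheet-like network of basement membranes under epithelium, around vessels and around muscle cells. COL6A1, COL6A2 and COL6A3 assemble into the beaded microfibrils of type VI collagen between cells and fibrils. In the gut wall, fibroblasts and smooth muscle cells are known sources of these chains.

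The total gene count per calf ran from 1163791 to 4202593. These totals are far below the reads per sample that the study reports, so they may not stand for its full depth. The reason was not determined here. The libraries had been read in 3 lanes, with 11 calves in lane 1, 11 in lane 2 and 5 in lane 3. These lane numbers were assigned here and are not the lane numbers within the run names. By the run names in the labels, lanes 1 and 2 belonged to one sequencing run and lane 3 to another, so lane 3 and its run cannot be told apart. Lane 1 held no TRT0_C calf, and lane 3 held no TRT0_H, TRT6_H or TRT12_C calf. Lane is reported below because the collagens differed between lanes. All 10 smooth muscle, 8 epithelial, 5 fibroblast and 3 endothelial markers with an identifier were counted in every calf. This is no check of the tissue label. Identifiers came from the study's lists of core genes, which are counted in every calf by definition, and of network module genes. Markers without an identifier were left out. In whole tissue, fewer cells of a type and less RNA per cell cannot be told apart.

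The 9 members together took 1.43% ± 0.37 (SD, n = 27) of all gene counts, from 0.947% in the lowest calf to 2.25% in the highest. Values are given as counts per 1000000 gene counts of the same calf (CPM), which are not corrected for gene length, so levels are compared between calves and not between genes. The lowest count of a member in any calf was 343, for COL5A2, and the highest was 17060, for COL3A1. All 9 members passed the filter on low counts, which 13943 of the 24616 genes passed.

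Among the fibrillar chains, COL3A1 varied least and COL1A1 most. COL3A1 lay between 3152 CPM (TRT12_H calf 9) and 6935 CPM (TRT0_H calf 2), a 2.20-fold range. COL1A1 lay between 1667 CPM (TRT6_C calf 4) and 5998 CPM (TRT12_C calf 7), a 3.6-fold range. COL1A2 spanned 1433 to 4144 CPM and COL5A2 248 to 611 CPM, 2.89-fold and 2.46-fold. The coefficient of variation over the 27 calves was 20.3% for COL3A1 and 37.6% for COL1A1. Counting error alone would give 1.09% and 1.35%.

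The basement membrane chains spanned similar ranges. COL4A1 lay between 660 and 1318 CPM and COL4A2 between 234 and 708 CPM, 2.0-fold and 3.02-fold. For type VI collagen, COL6A1 spanned 402 to 924 CPM, COL6A2 254 to 703 CPM and COL6A3 707 to 1941 CPM. The same few calves stood at the top for most members when levels were scaled by TMM, the library scaling used for the tests. TRT0_H calf 9 and TRT6_C calf 8 were among the 5 highest calves for all 9 members, TRT6_H calf 1 for 8, TRT0_H calf 2 for 7 and TRT12_C calf 7 for 6. At the other end, TRT6_C calf 4 was among the 5 lowest for 7 members and TRT6_C calf 9 for 6. High and low calves thus occurred in more than 1 treatment, and TRT6_C held calves of both kinds.

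**Figure D1:**
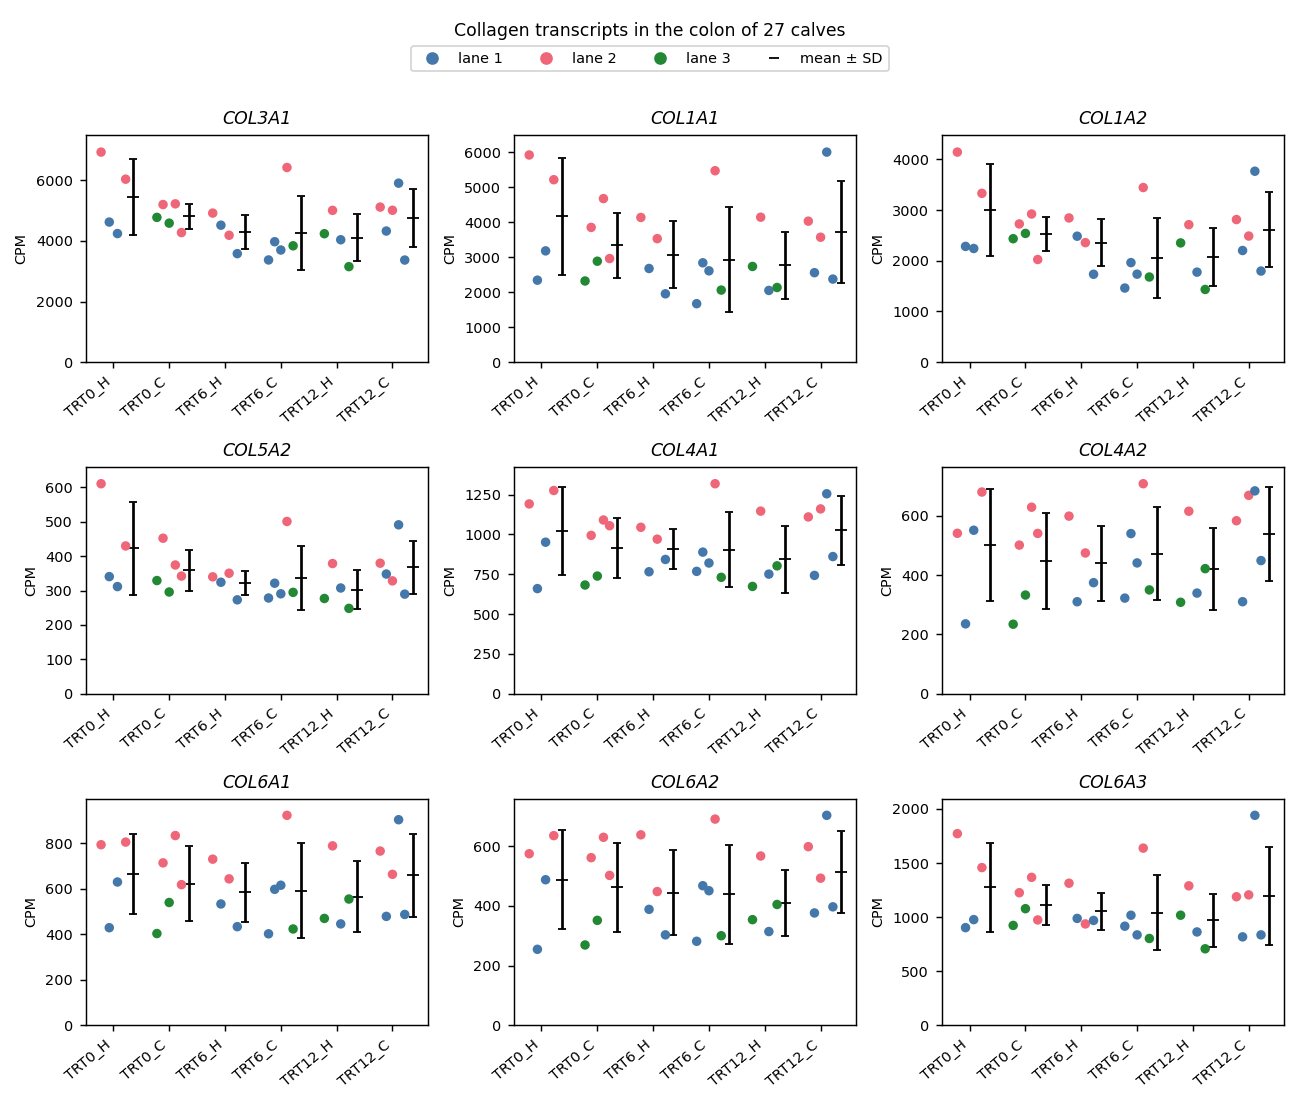
CPM (vertical axes, from 0) of the 9 collagen transcripts in each of 27 calves, by treatment and parity of the dam; points are calves coloured by sequencing lane, and black marks are the group mean ± SD. The 6 groups overlapped for every member, and lane 2 points sat in the upper part of most groups.

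The first comparison asked whether collagen transcripts differed with the time of the first colostrum meal, over both parities. No member passed the test in any of the 4 contrasts over all calves (edgeR quasi-likelihood test, Benjamini-Hochberg adjusted p up to 0.10 and a fold change of at least 1.2). In TRT0 calves COL3A1 was at 4244 CPM at the lowest, 4778 at the median and 6935 at the highest. In TRT6 calves these values were 3373, 3974 and 6426 CPM, and in TRT12 calves 3152, 4328 and 5909 CPM. The 3 treatments overlapped over most of their ranges. The means were 5102 ± 886, 4280 ± 937 and 4464 ± 886 CPM (SD, n = 9 each).

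In TRT6 against TRT0 all 9 members had a negative log2 fold change, with a median of -0.14 beside 0.01 over all genes tested. With lane as a covariate COL4A2 was at 0.08 and COL6A2 at 0.01, so that shared sign held for the fibrillar chains and not for every type IV and VI chain. The member with the lowest p was COL1A2, one of the type I chains, at a log2 fold change of -0.30 ± 0.16 (SE; unadjusted p = 0.082; edgeR adjusted p = 1.0). In TRT12 against TRT0 the median was -0.11 and 6 of 9 were negative. COL3A1 had the lowest p there, with a log2 fold change of -0.18 ± 0.13 (SE; unadjusted p = 0.18; edgeR adjusted p = 0.706). In TRT12 against TRT6 the log2 fold changes lay between 0.03 and 0.12. In calves of cows against calves of heifers they lay between -0.09 and 0.04. These contrasts share calves, and the members moved together from calf to calf, so the shared sign of 9 members is not 9 separate observations.

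Over all 13 contrasts, which are those 4 and 9 within a parity or a treatment, none of the 117 member-by-contrast pairs passed the edgeR test. No gene of any kind passed it in those contrasts, a background of 0%. That differs from the study, which called RGS2 and CCL14 in some of them. The likelihood ratio test of edgeR called at most 2 genes in a contrast and no member. DESeq2 also called no member, while it called 51 of 13941 genes in TRT12 against TRT0 and at most 4 in any other contrast. At an unadjusted p under 0.05, 5 of the 117 pairs were found, beside a background of 4.19% of all gene-by-contrast pairs. The test of whether the effect of feeding time differed with dam parity (an interaction term in edgeR) called no member. It called 1 gene in all, 0.00717%, and 2.67% of genes had an unadjusted p under 0.05 but no member did. COL5A2 came nearest, with an unadjusted p of 0.053 and an edgeR adjusted p of 0.999.

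Of the 5 pairs, 4 fell in 1 contrast, TRT12_H against TRT0_H, and concerned the 4 fibrillar chains. None passed the edgeR test after adjustment (adjusted p = 1.0 for each), and the background at an unadjusted p under 0.05 was 3.56% of genes, or 1.8% counting only genes lower in TRT12_H. COL5A2, the type V chain, was at 611, 340, 312 and 430 CPM in the 4 TRT0_H calves (2, 5, 6 and 9). In the 4 TRT12_H calves (1, 3, 4 and 9) it was at 277, 379, 307 and 248 CPM. Calves 1, 4 and 9 of TRT12_H lay below every TRT0_H calf, and calf 3 lay inside their range. The log2 fold change was -0.51 ± 0.18 (SE; unadjusted p = 0.0080).

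COL1A2 stood at 4144, 2283, 2241 and 3330 CPM in the TRT0_H calves and at 2351, 2711, 1774 and 1433 CPM in the TRT12_H calves. Its groups overlapped, with 2 TRT12_H calves below all TRT0_H calves and 2 between them. The log2 fold change was -0.58 ± 0.23 (SE; unadjusted p = 0.019). COL3A1, the single chain of type III collagen, stood at 6935, 4624, 4244 and 6040 CPM against 4239, 5011, 4040 and 3152 CPM. There 3 TRT12_H calves lay below all TRT0_H calves, calf 1 by a narrow margin, and the log2 fold change was -0.45 ± 0.19 (SE; unadjusted p = 0.024).

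COL1A1 stood at 5915, 2339, 3176 and 5209 CPM in TRT0_H and at 2731, 4138, 2046 and 2130 CPM in TRT12_H. There 2 TRT12_H calves lay below all TRT0_H calves and 2 between them, and the log2 fold change was -0.64 ± 0.31 (SE; unadjusted p = 0.046). The basement membrane and type VI chains had log2 fold changes between -0.44 (COL6A3) and -0.28 (COL6A1) in this contrast, none at an unadjusted p under 0.05. The median over the 9 members was -0.44, beside 0.00 over all genes tested.

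These values rested on few calves. The count of members at an unadjusted p under 0.05 in this contrast was 4 with all calves, 0 without TRT0_H calf 2, 1 without TRT0_H calf 9 and 1 without TRT12_H calf 9. The former pair were sequenced in lane 2 and the last in lane 3. Within lanes the contrast left few calves: in lane 1 COL1A2 was at 2283 and 2241 CPM in TRT0_H and at 1774 CPM in TRT12_H, and in lane 2 at 4144 and 3330 against 2711 CPM. Lane 3 held the other TRT12_H calves and no TRT0_H calf. With lane as a covariate the log2 fold changes were -0.55 for COL1A2, -0.42 for COL3A1, -0.41 for COL5A2 and -0.48 for COL1A1. The first 3 had an unadjusted p under 0.05 in edgeR, beside 319 of 13943 genes in that fit. The type IV and VI chains came closer to 0 in that fit, at -0.07 for COL4A2, -0.08 for COL6A2, -0.13 for COL6A1, -0.17 for COL4A1 and -0.34 for COL6A3.

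**Figure D2:**
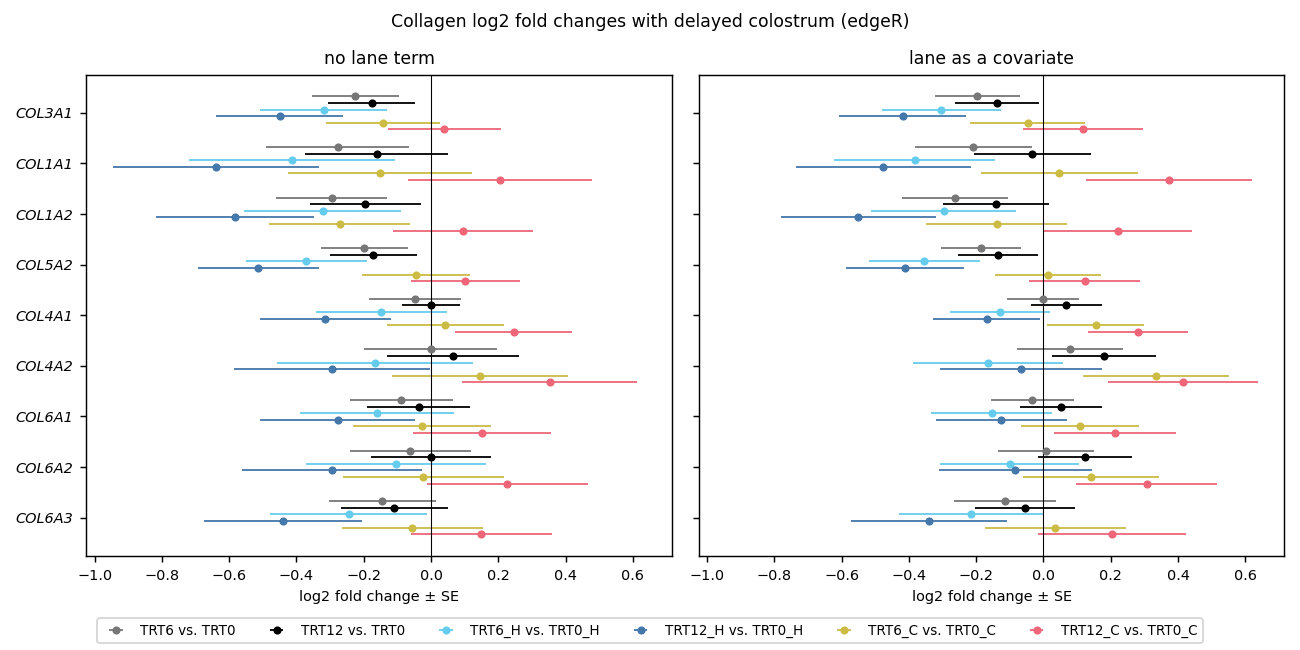
Log2 fold change ± SE (horizontal axis, edgeR, all 27 calves) of each collagen transcript for later against immediate colostrum, over all calves and within calves of heifers or of cows; the left panel has no lane term and the right panel has lane as a covariate. Values for calves of heifers at 12 h (dark blue) lie to the left of 0, between -0.64 and -0.28 without the lane term, and none passed the adjusted test.

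In TRT6_H against TRT0_H the background at an unadjusted p under 0.05 was 3.35%, and only COL5A2 among the 9 members was found. It stood at 340, 324, 350 and 273 CPM in the TRT6_H calves (1, 2, 3 and 7), of which calf 7 alone lay below all TRT0_H calves. The log2 fold change was -0.37 ± 0.18 (SE; unadjusted p = 0.049). This contrast shares its TRT0_H calves with the one above. Among calves of cows, the members' log2 fold changes in TRT12_C against TRT0_C were all positive, from 0.04 to 0.35, and COL4A1 had the lowest p there at a log2 fold change of 0.25 ± 0.17 (SE; unadjusted p = 0.17; edgeR adjusted p = 0.652). The lowest p in TRT6_C against TRT0_C belonged to COL1A2, at -0.27 ± 0.21 (SE; unadjusted p = 0.20).

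Between the later meals, COL1A2 had the lowest p in both parities. Its log2 fold change was -0.26 ± 0.23 (SE; unadjusted p = 0.27) in TRT12_H against TRT6_H and 0.37 ± 0.21 (SE; unadjusted p = 0.091) in TRT12_C against TRT6_C. Between parities within a treatment, COL5A2 had the lowest p in TRT0_C against TRT0_H, at -0.33 ± 0.17 (SE; unadjusted p = 0.065), and in TRT12_C against TRT12_H, at 0.29 ± 0.17 (SE; unadjusted p = 0.10). In TRT6_C against TRT6_H it was COL1A2, at -0.27 ± 0.22 (SE; unadjusted p = 0.23). None of these passed the edgeR test, and the lowest adjusted p among them was 0.759.

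Sequencing lanes were compared as well. In the plot of CPM by lane, the calves of lane 2 stood above those of lane 3 for every member on average. COL4A1 lay between 970 and 1318 CPM in lane 2, with a mean of 1123 ± 110 CPM (SD, n = 11). In lane 3 it lay between 673 and 802 CPM, with a mean of 725 ± 51.8 CPM (SD, n = 5), so these lanes did not overlap. Lane 1 lay between 660 and 1255 CPM, with a mean of 846 ± 158 CPM (SD, n = 11). COL1A1, COL4A2, COL6A1 and COL6A2 did not overlap between lanes 2 and 3 either, which makes 5 of 9 members. Of all genes tested, 0.796% (111 of 13943) had every lane 2 calf above every lane 3 calf.

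Lane was tested beside treatment and parity in edgeR, a test chosen after the data had been seen. It called 5 of 9 members against a background of 2.410% of genes (336 of 13943). That background was 74 genes without TRT0_C calf 1 and 1117 without TRT12_H calf 9. The adjusted p was 0.0273 for COL4A1, 0.0287 for COL6A2, 0.0320 for COL4A2, 0.0395 for COL6A1 and 0.0519 for COL1A1. Both type IV chains were therefore called, with 2 of 3 type VI chains and 1 of 4 fibrillar chains. COL3A1 had the highest adjusted p, 0.405. The number of members called was 0 without TRT0_C calf 1, a lane 3 calf. It was 3 without TRT6_C calf 8, a lane 2 calf, where 124 of 13943 genes were called. When only lanes 1 and 2 were fitted it was 0, but only 1 of 13943 genes was called there. At an unadjusted p under 0.05 in edgeR, that fit found 8 of 9 members, beside 1583 of 13943 genes.

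The lane 3 minus lane 2 difference passed the edgeR test for 6 members, against a background of 5.54%. The log2 differences were -0.79 ± 0.18 for COL4A2, -0.76 ± 0.20 for COL1A1, -0.71 ± 0.16 for COL6A2, -0.57 ± 0.14 for COL6A1, -0.55 ± 0.12 for COL4A1 and -0.41 ± 0.13 for COL5A2 (SE). The last had an adjusted p of 0.0992 in edgeR, close to the threshold. Lane 2 minus lane 1 gave positive log2 differences for all 9 members, from 0.18 to 0.54, but neither a member nor any other gene passed the edgeR test. At an unadjusted p under 0.05 there were 5 members, beside 12.3% of all genes. Lane 3 minus lane 1 gave negative ones, from -0.32 to -0.07, and called nothing, with 0 members at an unadjusted p under 0.05 beside 4.85% of all genes. The median over all genes tested lay within 0.01 of 0 in each of the 3 pairs.

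Marker genes moved between lanes too, and their part in the collagen difference was not tested. All 10 smooth muscle markers had a negative log2 difference between lanes 3 and 2, with a median of -0.31, and 2 of them passed the test. All 5 fibroblast markers were negative, with a median of -0.26 and 1 passing. The summed level of the fibroblast markers lay between 852 and 1223 CPM in lane 2 and between 744 and 839 CPM in lane 3, without overlap. The summed smooth muscle markers, at 8386 to 14891 CPM and 7660 to 12658 CPM, did overlap. Of the 3 endothelial markers 1 passed, with a median of -0.14. The 8 epithelial markers had a median log2 difference of 0.05, and none passed. Lane and treatment were unevenly crossed, and whatever else distinguished the calves of a lane cannot be told apart from the lane.

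**Figure D3:**
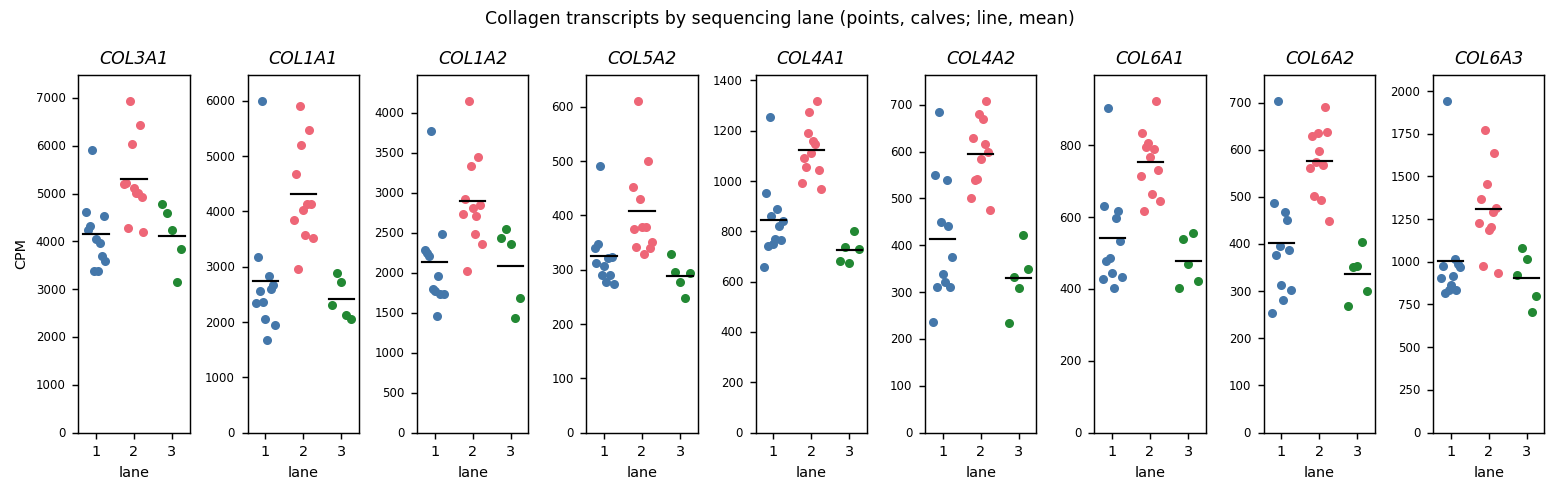
CPM (vertical axes, each from 0) of the 9 collagen transcripts by sequencing lane, with 11, 11 and 5 calves; points are calves and lines are lane means. Lane 2 had the highest mean for every member, and for COL1A1, COL4A1, COL4A2, COL6A1 and COL6A2 its lowest calf lay above the highest calf of lane 3, as it did for 0.796% of all genes tested.

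Chains that build the same collagen varied together over the 27 calves. COL6A1 and COL6A2 had a Pearson r of 0.97 and a Spearman rho of 0.95, COL4A1 and COL4A2 0.93 and 0.95, and COL1A1 and COL1A2 0.89 and 0.87. COL6A3 followed the other type VI chains less closely, with an r of 0.77 and a rho of 0.78 with COL6A1 and an r of 0.70 and a rho of 0.68 with COL6A2. Permutation p-values, adjusted over the 5 pairs, were 1.2e-05 for r and rho in the first 4 pairs, from the smallest unadjusted p the 100000 resamples can give. For COL6A2 and COL6A3 they were 5e-05 and 0.00011. Without the 2 calves farthest from the median of the first gene of each pair, r ranged from 0.69 to 0.96.

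Within lanes, r was 0.86 in lane 1 and 0.98 in lane 2 for COL1A1 and COL1A2, 0.89 and 0.90 for COL4A1 and COL4A2, and 0.96 and 0.92 for COL6A1 and COL6A2. For COL6A2 and COL6A3 it was 0.56 in lane 1, with a permutation p of 0.070, and 0.81 in lane 2, with a permutation p of 0.0026. For COL6A1 and COL6A3 it was 0.67 and 0.90, with permutation p-values of 0.029 and 0.00038. Lane 3 held 5 calves, too few for a correlation. COL4A1 and COL4A2 lie next to each other in the RefSeq gene order of assembly ARS-UCD2.0, as do COL6A1 and COL6A2, and COL3A1 and COL5A2, with no gene between.

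Across all 36 pairs of members, r had a median of 0.81 and a range from 0.38 to 0.97, as a description over calves that share lanes and library sizes. Pairs of fibrillar chains had a median of 0.88, and pairs of type IV or VI chains 0.88. Pairs of 1 fibrillar and 1 type IV or VI chain had a lower median, 0.65. Centred within lanes the 3 medians were 0.86, 0.76 and 0.48. COL4A2 and COL3A1 were the least alike, at 0.38, or 0.11 centred within lanes. COL1A1 was high with both sets, from 0.80 to 0.89 with the other fibrillar chains and from 0.73 to 0.93 with the type IV and VI chains. COL6A3 was at 0.82 to 0.89 with the fibrillar chains but lower with the other type IV and VI chains, from 0.61 to 0.77. The median r of members with all other genes tested was -0.01. The total count of a library had an r of 0.28 with the mean member level.

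**Figure D4:**
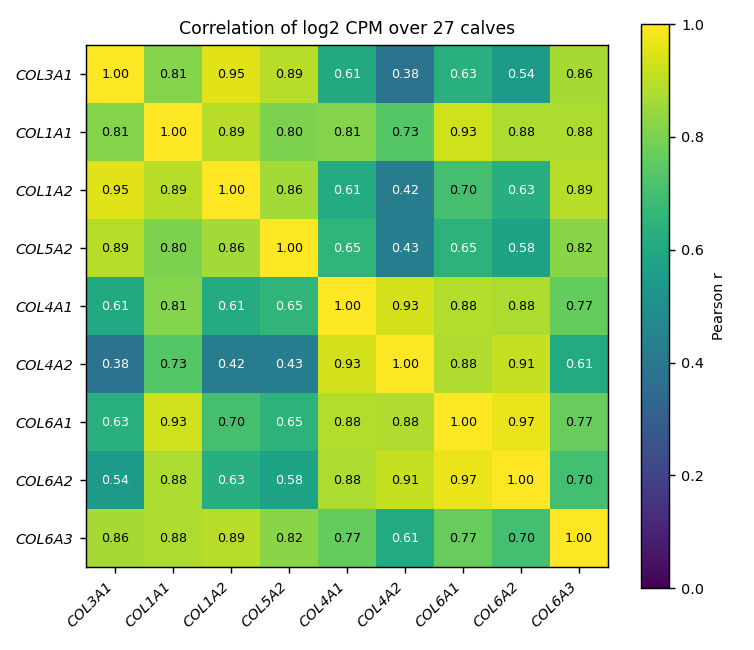
Pearson r of log2 CPM between collagen transcripts over 27 calves, with the value in each cell and a colour scale from 0 to 1. A block of fibrillar chains (upper left) and a block of type IV and VI chains (lower right) have medians of 0.88 against 0.65 for the cells between them, and the COL1A1 and COL6A3 rows are high across the fibrillar columns.

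In ratios between chains, library size cancels within a calf. Mean ratios of COL1A1 to COL1A2 counts were 1.33 ± 0.24, 1.34 ± 0.19 and 1.36 ± 0.17 (SD, n = 9 each) for TRT0, TRT6 and TRT12. COL4A1 to COL4A2 was 2.16 ± 0.43, 2.04 ± 0.29 and 1.99 ± 0.22, and COL6A1 to COL6A2 was 1.39 ± 0.15, 1.36 ± 0.10 and 1.33 ± 0.06. None of the 20 two-sided permutation tests (5 ratios in the 4 contrasts over all calves, exact for treatments) passed, the lowest unadjusted p being 0.302 and the lowest adjusted p 0.957. Over the 5 ratios, the TRT12 minus TRT0 difference on the log2 scale ran from -0.18 to 0.10 in lane 1, from -0.10 to 0.06 in lane 2 and from -0.36 to 0.34 in lane 3, where TRT12_H calves were set against TRT0_C calves. The ratios also spread differently by lane: COL1A1 to COL1A2 was 1.49 ± 0.07 in lane 2 (SD, n = 11), 1.27 ± 0.19 in lane 1 (SD, n = 11) and 1.19 ± 0.19 in lane 3 (SD, n = 5).

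**Figure D5:**
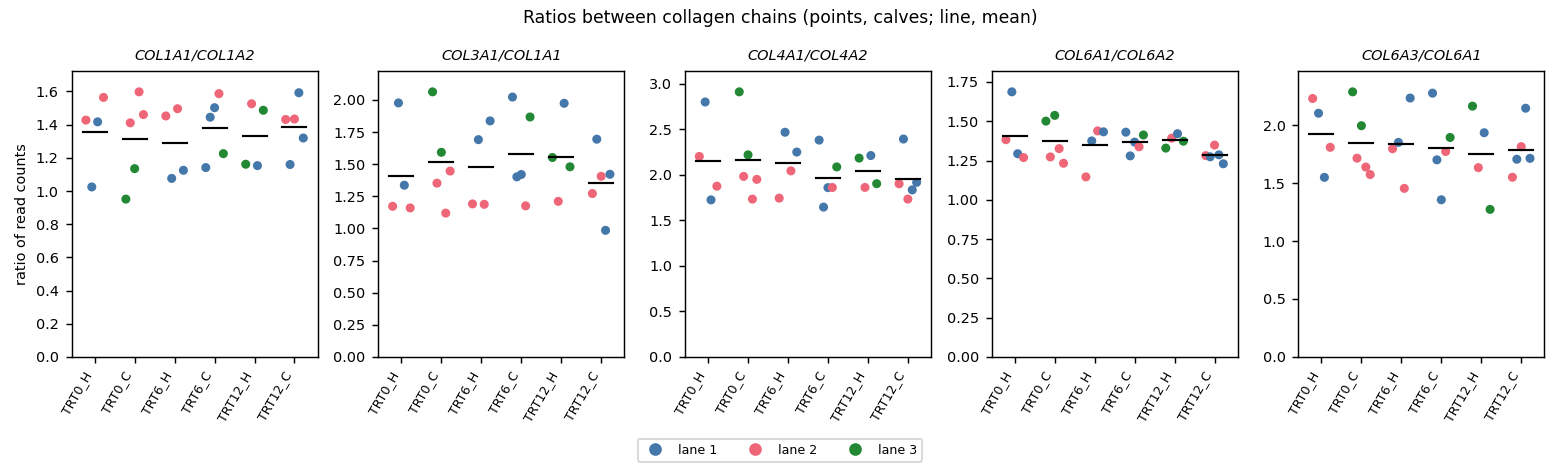
Ratio of read counts (vertical axes, each from 0) between pairs of collagen chains in 27 calves, by treatment and parity; points are calves coloured by lane and lines are group means. Group means lie close together for each ratio, and the lane 2 calves form a narrow band for COL1A1 to COL1A2, between 1.411 and 1.598.

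Other collagen genes from lists chosen for this account were fewer, because the name tables favour highly counted genes. Of the other fibrillar collagens, 2 of 6 had an identifier: COL11A1 at 10.3 ± 3.98 CPM and COL11A2 at 1.37 ± 1.1 CPM (SD, n = 27), the latter below the filter. Of other network-forming collagens 3 of 9 had one, led by the basement membrane chains COL4A5 at 150 ± 23.05 CPM and COL4A6 at 42.0 ± 6.52 CPM. Of further collagens 6 of 19 had one and 5 passed the filter, led by COL15A1 at 439 ± 80.7 CPM and COL12A1 at 344 ± 87.7 CPM. None of the 9 that passed the filter passed the edgeR test in a contrast.

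COL14A1 and COL12A1, which associate with fibril surfaces, had the lowest p-values among these. COL14A1 had a log2 fold change of -0.40 ± 0.13 in TRT12 against TRT0 (SE; unadjusted p = 0.0056; edgeR adjusted p = 0.421) and of -0.29 ± 0.13 in TRT6 against TRT0 (SE; unadjusted p = 0.036). COL12A1 was at -0.31 ± 0.14 in TRT6 against TRT0 (SE; unadjusted p = 0.034). At an unadjusted p under 0.05 in edgeR there were 1307 of 13943 genes in TRT12 against TRT0 and 437 in TRT6 against TRT0. Between lanes 3 and 2, 3 of the 5 further collagens (COL12A1, COL16A1 and COL18A1) passed the test and all 5 had a negative log2 difference, while COL11A1 was at -0.01.

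Of the genes that modify and secrete procollagen, 9 of 30 had an identifier and none passed the adjusted test. The most counted were P4HB, a subunit of prolyl 4-hydroxylase, at 555 ± 116 CPM and SERPINH1, the collagen chaperone HSP47, at 296 ± 95.6 CPM (SD, n = 27). In TRT12 against TRT0, P4HB had a log2 fold change of 0.36 ± 0.14 (SE; unadjusted p = 0.013; edgeR adjusted p = 0.434) and PPIB, a prolyl isomerase, of 0.28 ± 0.12 (SE; unadjusted p = 0.032). In that contrast 1307 of 13943 genes had an unadjusted p under 0.05 in edgeR. Among calves of cows, 4 of the 9 had a positive log2 fold change with an unadjusted p under 0.05 in TRT12_C against TRT0_C, beside 9.86% of all genes in either direction, and 5 of the 9 in TRT12_C against TRT6_C, beside 6.71%. These contrasts share the TRT12_C calves, and every edgeR adjusted p was at least 0.427. Of the collagen turnover genes 4 of 16 had an identifier, led by MMP2 at 197 ± 32.4 CPM and MMP15 at 131 ± 25.7 CPM. Of the receptors 3 of 9 had one, led by the integrin subunits ITGB1 at 435 ± 34.0 CPM and ITGA1 at 170 ± 21.7 CPM. None of these turnover genes and receptors was at an unadjusted p under 0.05 in a contrast over all calves.

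Collagen-binding matrix proteins were covered best, with 9 of 12. FN1, fibronectin, was at 2271 ± 512 CPM and SPARC at 1541 ± 355 CPM (SD, n = 27). In TRT6 against TRT0, 8 of the 9 were negative with a median log2 fold change of -0.28. In that contrast 437 of 13943 genes had an unadjusted p under 0.05 in edgeR. The small leucine-rich proteoglycans OGN (-0.39 ± 0.12, unadjusted p = 0.0036), DCN (-0.40 ± 0.13, unadjusted p = 0.0056) and LUM (-0.29 ± 0.13, unadjusted p = 0.034) had the lowest p-values (SE), and each had an edgeR adjusted p of 1.0. In TRT12_H against TRT0_H all 9 were negative, with a median of -0.41 and 5 at an unadjusted p under 0.05. The background was 3.56% of genes, or 1.8% counting only genes lower in TRT12_H. These values come from the same few calves as those of the 4 members at that level, so they are not a separate observation.

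Of the marker lists, the fibroblast markers followed the members most closely over calves (r = 0.87, rho = 0.87, over 27 calves), followed by smooth muscle (r = 0.76) and endothelial markers (r = 0.38). Epithelial markers had an r of -0.12. In TRT12_H against TRT0_H, 5 of 5 fibroblast markers and 10 of 10 smooth muscle markers had a negative log2 fold change, with medians of -0.37 and -0.27, and their part in the collagen values was not tested. The summed fibroblast markers lay between 749 and 1223 CPM in TRT0_H and between 740 and 972 CPM in TRT12_H. The fibroblast marker DPT, dermatopontin, was at a log2 fold change of -0.43 ± 0.14 in TRT6 against TRT0 (SE; unadjusted p = 0.0046; edgeR adjusted p = 1.0) and of 0.33 ± 0.14 in TRT12 against TRT6 (SE; unadjusted p = 0.026), and PDGFRB of -0.19 ± 0.09 in the latter (SE; unadjusted p = 0.048). Of the epithelial markers, CLDN7 (0.31 ± 0.11, unadjusted p = 0.010), VIL1 (0.34 ± 0.13, unadjusted p = 0.011) and CDH1 (0.23 ± 0.10, unadjusted p = 0.036) had the lowest p-values in TRT12 against TRT0 (log2 fold change ± SE), with edgeR adjusted p-values of 0.434, 0.434 and 0.505. At an unadjusted p under 0.05 in edgeR there were 437 of 13943 genes in TRT6 against TRT0, 438 in TRT12 against TRT6 and 1307 in TRT12 against TRT0. The leukocyte list had 1 gene with an identifier, PTPRC at 70.1 ± 38.3 CPM (SD, n = 27), and describes these cells poorly.

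The most counted markers were MYH11 at 3476 ± 726 CPM and ACTG2 at 2456 ± 585 CPM for smooth muscle, and LGALS4 at 563 ± 74.0 CPM and KRT19 at 556 ± 126 CPM for epithelium (SD, n = 27). For fibroblasts they were VIM at 345 ± 84.7 CPM and PDGFRA at 216 ± 24.8 CPM, and for endothelium VWF at 191 ± 39.98 CPM and KDR at 95.7 ± 12.9 CPM. The level of PDGFRA, which marks many gut fibroblasts, had an r of only 0.18 with the member level, and PDGFRB an r of 0.40. Of the other fibroblast markers, VIM was at 0.82, FBLN1 at 0.87 and DPT at 0.68. LGALS4 ran the other way, at -0.50. Centred within lanes, r was 0.005 for PDGFRA, 0.012 for PDGFRB, 0.79 for VIM, 0.83 for FBLN1, 0.71 for DPT and -0.20 for LGALS4.

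The genes most like the members were found by their r with the mean standardised level of the 9 over 27 calves. Among 13934 other genes, those with names were EHD2 (r = 0.91), TNXB (0.90), PTRF (0.89), MYADM (0.87), FBLN1 (0.87) and NID2 (0.86). TNXB is a tenascin of the collagen matrix, FBLN1 a fibulin and NID2 a basement membrane protein that binds type IV collagen, while EHD2 and PTRF are known from caveolae. The others in the first 10 were ENSBTAG00000003938 (0.91), ENSBTAG00000047998 (0.89), ENSBTAG00000018810 (0.89) and ENSBTAG00000019517 (0.86), for which no name was at hand. Centred within lanes, the same 10 genes had an r between 0.77 and 0.87. At the other end were ENSBTAG00000021170 (-0.78), ENSBTAG00000020884 (-0.77), ENSBTAG00000003115 (-0.73), ENSBTAG00000042408 (-0.73) and ENSBTAG00000011643 (-0.72). These negative values were less stable: over the 5 genes r lay between -0.72 and -0.45 when centred within lanes and between -0.79 and -0.41 with library totals.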

How the data were processed

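RNA from 27 calf colons was sequenced with a kit that does not mark strand (TruSeq RNA v2). The authors aligned reads to UMD3.1 with TopHat2 2.1.1, sorted them with SAMtools 1.4, counted them per Ensembl gene with HTSeq and left out reads of more than 1 gene; the deposited values are raw read counts. The strand setting is not given in the sources used here. Treatment came from the sample labels and sequencing lane from the run names in them. Dam parity came only from the study's animal list, since neither the labels nor the column names give it. Gene names came from the study's tables and covered 4046 of 24616 identifiers.

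Genes with a CPM of at least 1 in at least 5 of 9 calves of each treatment were tested with edgeR 4.0.16 (TMM factors, quasi-likelihood test, R 4.3.3) over all 27 calves, with 6 group means for the 9 contrasts within a group and treatment plus parity for the 4 over all calves, and Benjamini-Hochberg adjustment over 13943 genes. Correlations used log2 CPM with a prior count of 2. Permutation tests were resampled with NumPy 2.4.6, and ranks came from SciPy 1.17.1. Alternatives included DESeq2 1.42.0, other library scaling, no filter, lane as a covariate, only the compared groups, and each calf left out. The edgeR steps were tested on simulated counts with changes larger than any fitted for a member. That does not show how often changes of the size seen here would be found. Members and lists were chosen with earlier results of these data known. Genes named were all members and the member of lowest p in each contrast. List genes were named at an unadjusted p under 0.05 in a contrast over all calves (at most 3 per list), with the 2 most counted of each list. The other genes with the 10 highest and the 5 lowest r, which were negative, were named as well. The result of 1 further marker list is not reported here.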

Additional observations from a re-analysis of the deposited data

Results flagged for a closer look

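Of 126 groups of values examined, each holding 4 to 9 calves for 1 member or ratio, 11 had a calf far from the others by Dixon's criterion. Separate, normally spread values meet it in about 1 group in 20. The CPM here were not transformed, the groups were nested and the members varied together, so the 11 cannot be set against that rate. TRT6_C calf 8 accounted for 7. Within TRT6_C it stood apart for COL3A1 at 6426 CPM, where the next calf was at 3974 CPM, for COL1A2 at 3444 CPM (next 1962), for COL4A1 at 1318 CPM (next 889), for COL5A2 at 501 CPM (next 321) and for COL6A3 at 1638 CPM (next 1018). It also stood apart within all TRT6 calves for COL3A1 and COL5A2. It was the only TRT6_C calf in lane 2.

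The other 4 were TRT0_H calf 2 for COL5A2 at 611 CPM within TRT0, TRT12_C calf 7 for COL6A3 at 1941 CPM within TRT12, TRT6_H calf 1 for COL6A3 at 1314 CPM within TRT6_H, and TRT12_C calf 5 for a COL4A1 to COL4A2 ratio of 2.39 within TRT12_C. All 11 values were the high end of their group.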

How the results depend on the processing

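No member was called in the 13 contrasts, by the interaction term or by a chain ratio under any alternative tried, and no fold change followed across the alternatives, which were those of TRT12_H against TRT0_H and of COL5A2, COL1A2 and COL3A1 in 3 further contrasts, changed sign. The lowest adjusted p of a member over all alternatives was 0.394. The count of 5 member-by-contrast pairs at an unadjusted p under 0.05 became 3 when only the compared groups were fitted and 3 with library totals without TMM factors. Leaving out 1 calf gave 0 to 13, with 0 without TRT0 replicate 2, 1 without TRT0 replicate 9, 2 without TRT12 replicate 9, 3 without TRT0 replicate 4, TRT6 replicate 3 or TRT12 replicate 1, 2, 4 or 6, 8 without TRT0 replicate 6 or TRT12 replicate 3, 9 without TRT0 replicate 5 and 13 without TRT6 replicate 8. In TRT12_H against TRT0_H the count of 4 ranged from 0 to 6 over left-out calves and from 3 to 4 over the other settings. The 5 members called for lane became 0 with lanes 1 and 2 only, where 1 of 13943 genes was called. Their number ranged from 0 to 6 over left-out calves. It stayed between 5 and 6 with other scaling, DESeq2, the likelihood ratio test or 6 group means. The lane test and the count for that single contrast were added after the data had been seen. The chain-pair correlations lay between 0.558 and 0.976 over the other settings. No paired analysis was possible because the replicate numbers were given in accession order and pair no calves. The causes of these shifts were not tested. With 4 or 5 calves a group, SEs of 0.16 to 0.31 on the log2 scale limited what could be seen in a member.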
